A study of Mus musculus with 18 samples.

Results

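The nuclear genes of the mitochondrial respiratory chain were examined in regulatory T cells (Tregs) that lacked or retained CD25, the IL-2 receptor alpha chain encoded by Il2ra. Members were taken by symbol from the count table: symbols that start with Nduf, Uqcr, Cox4, Cox5, Cox6, Cox7, Cox8 or Atp5, together with Sdha, Sdhb, Sdhc and Sdhd, and without those that contain -ps. This gave 97 of 50600 genes, of which 39 were placed with complex I, 8 with complex I assembly, 4 with complex II, 8 with complex III, 21 with complex IV and 17 with complex V. Cyc1 of complex III does not carry such a symbol and is described with the other mitochondrial genes.

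RNA-seq was performed on Tregs sorted from C57BL/6 mice, and each sample was 1 mouse. Thymic WT Tregs (n = 5) came from Foxp3/RFP reporter mice and thymic CD25 KO Tregs (n = 5) from CD25flox/Foxp3-YFP/Cre mice, in which Cre is expressed under Foxp3 and removes part of Il2ra, both at 3 to 4 weeks of age. The thymic KO mice had received WT splenocytes as neonates, which prevents their lethal autoimmunity, so they carry donor cells, and their WT controls did not receive them by the labels. Splenic CD25 KO Tregs (n = 4) came from CD25flox/Foxp3eGFP-Cre-ERT2/R26Y mice and splenic WT Tregs (n = 4) from the matching reporter controls. Both splenic groups were given tamoxifen at 70 mg/kg on 5 consecutive days and were sorted 10 to 14 days later. Reporter allele and donor cells therefore go with genotype in the thymus. The date in the column names of the counts, mouse model, age class and tamoxifen go with tissue and cannot be told apart from it. What that date stands for is not stated.

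Complex I (NADH dehydrogenase) and complex II (succinate dehydrogenase, which also serves the tricarboxylic acid cycle) pass electrons to coenzyme Q, complex III carries them to cytochrome c, and complex IV (cytochrome c oxidase) passes them to oxygen. Complexes I, III and IV pump protons, and complex V (ATP synthase) lets them flow back through a ring of c subunits to drive its F1 head. Most subunits are nuclear genes, a small core is encoded by mitochondrial DNA, and Tregs are known for a strong reliance on oxidative phosphorylation.

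Total counts ran from 17239774 to 23993674 in thymic and from 25258341 to 32639570 in splenic samples. Il2ra was between 524 and 682 CPM (counts scaled to the library by TMM) in thymic WT samples and between 95.8 and 280 in thymic KO samples. The splenic ranges were 488 to 538 in WT and 168 to 208 in KO samples, and the thymic KO mice 2 (280) and 4 (234) stood above the other 3. Foxp3, the defining Treg gene, was between 204 and 577 CPM in every sample. Ndufs3 and Uqcrc1 were listed at 0 in all 8 splenic samples, although they had 303 to 515 and 778 to 1541 counts in the thymic ones. They were 2 of 52 genes at 0 in every splenic sample and at 20 or more counts in every thymic one, with 0 genes in the reverse. No splenic value or tissue comparison is given for these members.

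Promoters of the members called lower in thymic KO Tregs are shown as background for these genes, for the 5 of 6 that had a window. Each run is the 250 bases before the RefSeq start on GRCm38.p6, given 5′ to 3′ on the gene's strand. Capitals mark CCAAT (or ATTGG on the other strand) and, in Cox6a1, the NRF1 core GCGCATGCG, read on both strands over the same bases, and the ETS letters CCGGAAG on the reverse strand. Atp5b and Atp5g1 held 5 matches each, Cox7b 1 and Ndufab1 0. In Atp5g1 the stretch CCAATTGG was counted once on each strand.
Atp5b, chr10:128083057-128083306, plus strand: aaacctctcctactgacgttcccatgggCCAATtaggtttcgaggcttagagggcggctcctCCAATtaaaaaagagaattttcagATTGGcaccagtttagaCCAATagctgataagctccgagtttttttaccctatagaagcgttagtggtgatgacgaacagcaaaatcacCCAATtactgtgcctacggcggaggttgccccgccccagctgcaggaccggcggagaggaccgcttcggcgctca
Atp5g1, chr11:96075632-96075881, minus strand: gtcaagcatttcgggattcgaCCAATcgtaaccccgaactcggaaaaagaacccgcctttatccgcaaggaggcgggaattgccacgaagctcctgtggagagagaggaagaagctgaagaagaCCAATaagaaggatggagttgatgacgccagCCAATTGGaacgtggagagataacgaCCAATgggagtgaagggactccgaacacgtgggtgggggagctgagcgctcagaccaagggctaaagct
Cox6a1, chr5:115348959-115349208, minus strand: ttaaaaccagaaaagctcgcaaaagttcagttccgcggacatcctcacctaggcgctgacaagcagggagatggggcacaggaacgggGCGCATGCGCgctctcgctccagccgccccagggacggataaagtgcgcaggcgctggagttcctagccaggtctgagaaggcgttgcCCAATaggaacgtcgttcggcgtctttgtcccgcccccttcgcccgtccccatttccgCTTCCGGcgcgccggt
Cox7b, chrX:106015450-106015699, plus strand: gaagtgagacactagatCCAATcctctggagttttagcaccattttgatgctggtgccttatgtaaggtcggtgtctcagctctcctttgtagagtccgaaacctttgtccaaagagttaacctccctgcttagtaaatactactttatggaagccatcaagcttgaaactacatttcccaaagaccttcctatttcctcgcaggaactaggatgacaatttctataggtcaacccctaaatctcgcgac
Ndufab1, chr7:122101849-122102098, minus strand: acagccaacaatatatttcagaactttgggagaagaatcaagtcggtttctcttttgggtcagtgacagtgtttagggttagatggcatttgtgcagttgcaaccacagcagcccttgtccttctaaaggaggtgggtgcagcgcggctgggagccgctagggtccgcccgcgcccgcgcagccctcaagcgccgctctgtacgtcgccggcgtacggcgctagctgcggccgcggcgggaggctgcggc

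RefSeq windows of 300 bases (250 before and 50 after the start) were matched for 74 of the 97 members and searched on both strands. GCGCATGCG, the core of the site of NRF1, a regulator of nuclear respiratory genes, was in 10 of 74 member windows (13.5%) and in 1.81% of all 27025. CCGGAAG, of the ETS family to which the respiratory regulator GABP belongs, was in 17 (23.0%) against 9.12%, and AAGATGGC, of YY1, in 9 (12.2%) against 2.88%. The YY1 letters were in 7 of 32 windows of complex I and in 1 of 13 of complex V. CCAAT occurred in 44.6% of member windows and 37.9% of all. It occurred at least 5 times in Atp5b and Atp5g1, which were 2 of 74 member windows (2.70%), and in 0.285% of all. The cut of 5 equals the count in these 2 members, both called in thymus. These shares are therefore no test of the members. A match of letters is a description and not a binding site.

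Per length of all annotated exons, the respiratory chain genes were among the more abundant mRNAs of these Tregs. This length was 419 bases for Ndufa1 and 6883 for Ndufab1. A gene with exons outside its main transcript gets too low a value by it, which limits ranks and medians. In thymic WT samples, Atp5a1, the alpha subunit of the F1 head, was at 347 TPM (a count per exon length as part of the sample total, made here from the counts), the 98.9th percentile of the 17085 genes at 1 TPM or more. The median TPM of members at 1 TPM or more was 49.2 for complex I, 68.3 for complex II, 89.3 for complex III, 76.0 for complex IV and 72.3 for complex V, and 10.6 for the assembly factors, which act on complex I without staying in it. Splenic WT medians were 47.9, 62.5, 84.6, 84.6, 74.5 and 11.2 in the same order. The medians of both tissues leave out Ndufs3 and Uqcrc1, which were at 22.7 and 38.6 TPM in thymic WT samples.

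The 2 highest members of each complex, by mean TPM over the 4 groups, were Ndufa13 (123) and Ndufa1 (115), accessory subunits of complex I, Ndufaf8 (24.8) and Ndufaf1 (23.5) among assembly factors, Sdha (113), the flavoprotein of complex II, and Sdhd (70.8), a membrane anchor, Uqcrh (211), the hinge protein, and Uqcr10 (120) in complex III, Cox7a2l (259), a supercomplex factor, and Cox6b1 (246) in complex IV, and Atp5a1 (315) and Atp5b (231), the catalytic beta subunit, in complex V. Spread within a complex was wide: in thymic WT samples complex V ran from 3.76 (Atp5s) to 347 TPM. Atp5s was placed there as a regulator or related gene, and the next lowest was Atp5l at 8.84 TPM.

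**Figure D1:**
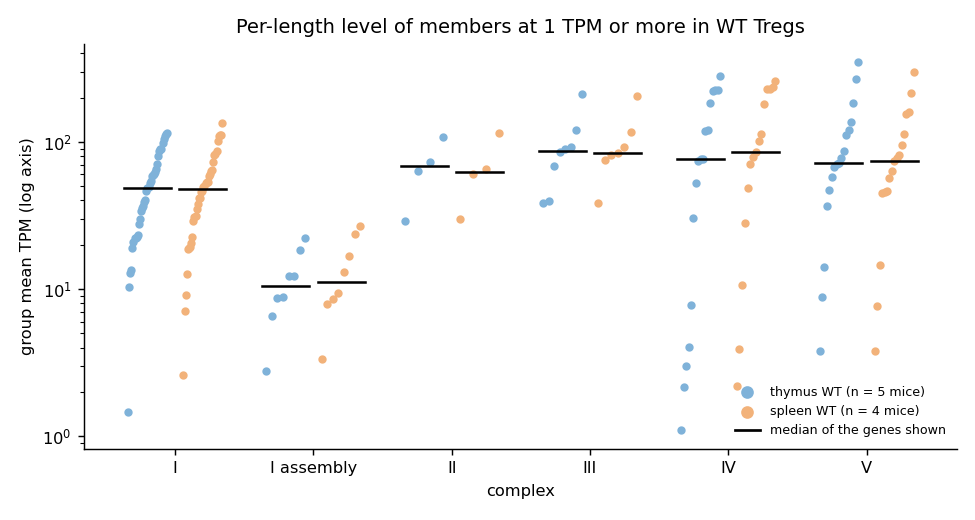
Group mean level per length of all annotated exons (TPM, log axis) of each member at 1 TPM or more in thymic and splenic WT Tregs. Members are shown by complex, with black lines at the medians of the genes shown, which in thymus include Ndufs3 and Uqcrc1. The assembly factors lie lowest, with medians of 10.6 and 11.2 TPM, and the 5 complexes overlap broadly.

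Isoforms known from muscle, lung or testis were scarce. Cox7b2 and Cox8c had 0 counts in all 18 samples and Cox4i2 had 1 to 16. Cox6a2 had 1 to 25 counts in thymic and 0 to 4 in splenic samples, Cox8b 5 to 22, Cox6b2 10 to 44 and Cox7a1 22 to 72. Ndufa4l2, a paralogue of Ndufa4, had 0 to 8 counts and Cox6c2, a processed pseudogene in the annotation, 0 to 5. At such counts a difference between groups was seldom detectable. Their broadly expressed counterparts, Cox4i1 (225 TPM in thymic WT), Cox6a1 (184), Cox6b1 (225) and Cox8a (221), were far above them.

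Thymic CD25 KO Tregs had lower counts of a few respiratory chain genes, and relative to the median gene most members lay slightly below WT. Complexes were not tested against each other, and the calls varied with the setting and the mice left out, as given below. Of 97 members, 89 passed the filter on low counts. By edgeR's quasi-likelihood test 6 were lower and 0 higher at an adjusted p under 0.01, which is 6.74% of the tested members, against 2.99% of all tested genes in that direction. The study used this threshold with DESeq2, which here called 15 members lower, beside 1246 over all tested genes. Of the 6 called by edgeR, 3 belong to complex V (Atp5g1, Atp5b, Atp5a1), 2 to complex IV (Cox6a1, Cox7b) and 1 to complex I (Ndufab1). None of the tested assembly factors (8), complex II (4) or complex III (8) members passed. At an adjusted p under 0.05, 28 of 89 were lower, against 10.9% of all tested genes, and 0 higher.

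The log2 fold change was below 0 for 77 of 89 members, against 50.3% of all tested genes. It was below 0 for 34 of 36 members of complex I, 6 of 8 assembly factors, 4 of 4 of complex II, 8 of 8 of complex III, 10 of 16 of complex IV and 15 of 17 of complex V. The median log2 fold change was -0.16 for complex I, -0.05 for the assembly factors, -0.19 for complex II, -0.20 for complex III, -0.16 for complex IV and -0.23 for complex V, and -0.0022 over all tested genes. For 24 members every KO sample lay below every WT sample, against 9.17% of all tested genes. In bulk RNA, fewer cells of a type and less RNA per cell cannot be told apart.

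**Figure D2:**
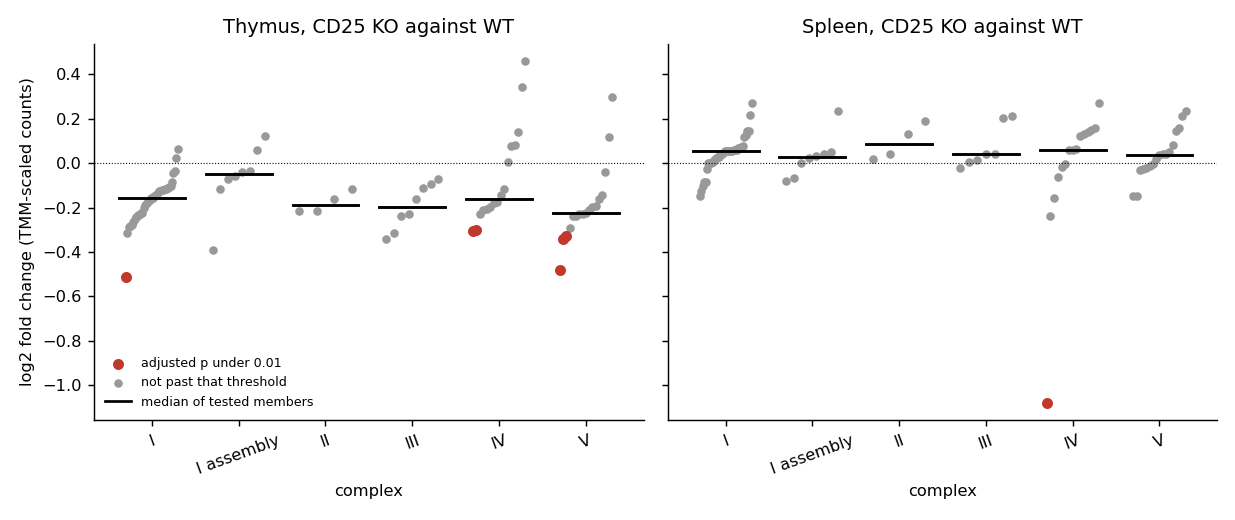
Log2 fold change (CD25 KO against WT) of every tested member by complex in thymus and spleen, with black lines at the medians and red points for an adjusted p under 0.01. In thymus the medians lie between -0.23 and -0.05 and 6 members are red, and in spleen the medians lie between 0.03 and 0.09 and Cox6b2 alone is red.

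In complex V, Atp5g1 encodes 1 of 3 precursors of the c-ring subunit. Its level was 26.2, 28.2, 28.2, 26.8 and 28.0 CPM in thymic WT samples and 20.4, 21.0, 17.1, 21.9 and 16.95 in CD25 KO. Every KO value lay below every WT value, with a log2 fold change of -0.48 (SE 0.08, adjusted p = 0.00342). Atp5b, which carries the catalytic sites, was at 427, 477, 469, 412 and 457 CPM in WT and 338, 380, 325, 368 and 340 in KO. The groups did not overlap (log2 fold change -0.34, SE 0.06, adjusted p = 0.00424).

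Atp5a1, its partner in the F1 head, was at 416, 467, 435, 394 and 447 CPM in WT and 338, 382, 320, 358 and 302 in KO, again without overlap (log2 fold change -0.33, SE 0.07, adjusted p = 0.00881). All 5 F1 subunit genes had negative values, with a median of -0.29. Atp5d (-0.29, adjusted p = 0.0107), the delta subunit, and Atp5h (-0.24, adjusted p = 0.0102), of the peripheral stalk, were just outside the threshold. The other c-ring genes did not pass (Atp5g2 -0.15 and Atp5g3 -0.21), and Atp5s (0.30, adjusted p = 0.182) and Atp5l (0.12) had the highest values of complex V.

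In complex I, Ndufab1, the mitochondrial acyl carrier protein, was at 33.8, 37.3, 35.0, 37.6 and 32.3 CPM in WT and 21.0, 25.4, 21.9, 23.6 and 30.0 in KO. The KO samples all lay below WT, 1 of them near the WT range (log2 fold change -0.51, SE 0.10, adjusted p = 0.00476). The next lowest value was that of Ndufa1 (-0.31, adjusted p = 0.0184). These core subunits were not called: Ndufv1, which binds NADH, gave -0.28 (adjusted p = 0.0105) and Ndufs7 of the coenzyme Q module -0.25 (0.0327). Ndufs1, the largest iron-sulfur subunit of the NADH module (0.06), and Ndufs4 (0.02) had the highest values. By module, the medians were -0.11 over 8 genes of the NADH module, -0.23 over 5 of the coenzyme Q module and -0.16 over 23 other accessory subunits. Among assembly factors the range was from -0.39 (Ndufaf6, adjusted p = 0.0738) and -0.11 (Ndufaf7) to 0.06 (Ndufaf2) and 0.12 (Ndufaf8).

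In complex IV, Cox6a1, the broadly expressed form of subunit VIa, was at 46.8, 57.5, 54.0, 46.4 and 52.1 CPM in thymic WT and 40.5, 42.2, 40.9, 40.6 and 41.4 in KO. The KO values were tightly grouped below all WT values (log2 fold change -0.30, SE 0.06, adjusted p = 0.00767). Cox7b was at 58.8, 61.7, 55.4, 51.5 and 59.3 CPM in WT and 42.3, 46.2, 46.3, 47.9 and 47.7 in KO, and the groups did not overlap (log2 fold change -0.30, SE 0.06, adjusted p = 0.00745). Of 11 broadly expressed subunits 10 had negative values, Cox4i1 (-0.14, adjusted p = 0.0667) and Cox5a (-0.23, adjusted p = 0.0794) included, and Cox7c (0.14) was the other. Ndufa4, once assigned to complex I and now to complex IV, gave -0.17 (adjusted p = 0.0577) and the supercomplex factor Cox7a2l 0.07. The highest values of the complex were those of Cox8b (0.46, adjusted p = 0.344) and Cox6b2 (0.34, adjusted p = 0.254), both at low counts.

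**Figure D3:**
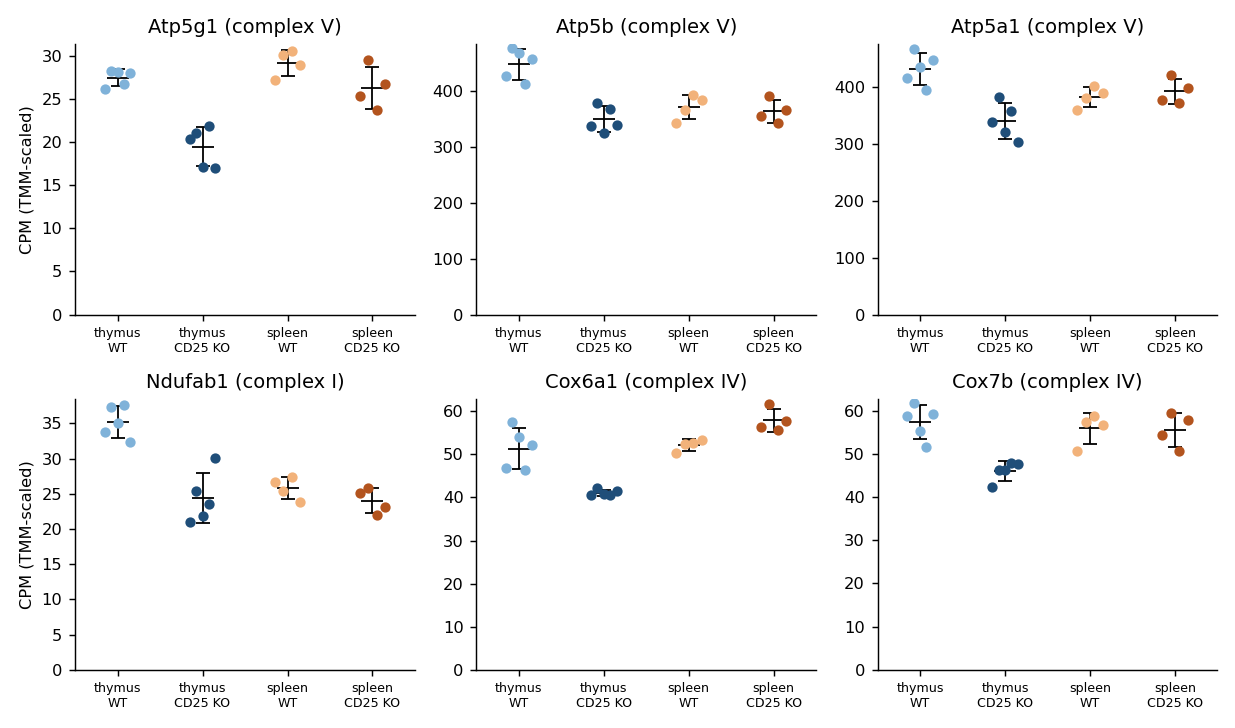
CPM (TMM-scaled, axis from 0) of the 6 members called in thymus, in each sample of the 4 groups, with the mean and SD in black. In all 6 panels each thymic CD25 KO point lies below each thymic WT point.

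In complexes II and III no member passed in the thymus. Sdha gave -0.12 (adjusted p = 0.0918), the iron-sulfur subunit Sdhb -0.21 (0.0437), Sdhd -0.21 (0.0358) and Sdhc -0.16 (0.0929). In complex III the lowest values were those of Uqcr10 (-0.34, adjusted p = 0.0304) and the core protein Uqcrc1 (-0.32, adjusted p = 0.014), and the highest those of Uqcrfs1, the Rieske iron-sulfur protein (-0.09), and Uqcrh (-0.07).

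The score of a complex, the mean log2 CPM of its members tested in both tissues, showed how the single mice behaved. For complex I it was 4.84, 4.97, 4.95, 4.83 and 4.92 in thymic WT and 4.71, 4.71, 4.68, 4.74 and 4.74 in CD25 KO samples, without overlap. For complex V it was 5.80, 5.93, 5.92, 5.74 and 5.89 in WT and 5.62, 5.69, 5.61, 5.71 and 5.65 in KO. The 5 KO scores also lay below all WT scores for complex II, complex III and the assembly factors, the last of which overlapped when CPM were scaled by total counts (0 of 5 below). For complex IV 1 of 5 KO scores did, and the difference of means was -0.08 against a WT SD of 0.11. That score weighs Cox6b2, Cox7a1 and Cox8b, at 5 to 72 counts, like every other member. In log2 fold change, 10 of 11 broadly expressed subunits were below 0 (median -0.20), while 4 tested tissue-restricted isoforms had a median of 0.21. The part of these isoforms in the score was not tested.

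The direction depended in part on the scaling. In TPM the median of all tested genes moved to 0.11 in thymus, and the member median was then -0.04, with the assembly factors at 0.07. Relative to the median of all genes it was -0.15 in TPM, -0.16 in CPM by total counts and -0.16 in TMM-scaled CPM, with 78 of 89 members below that median in each. In TPM 2 of the 5 KO scores of complex I lay below all WT scores.

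**Figure D4:**
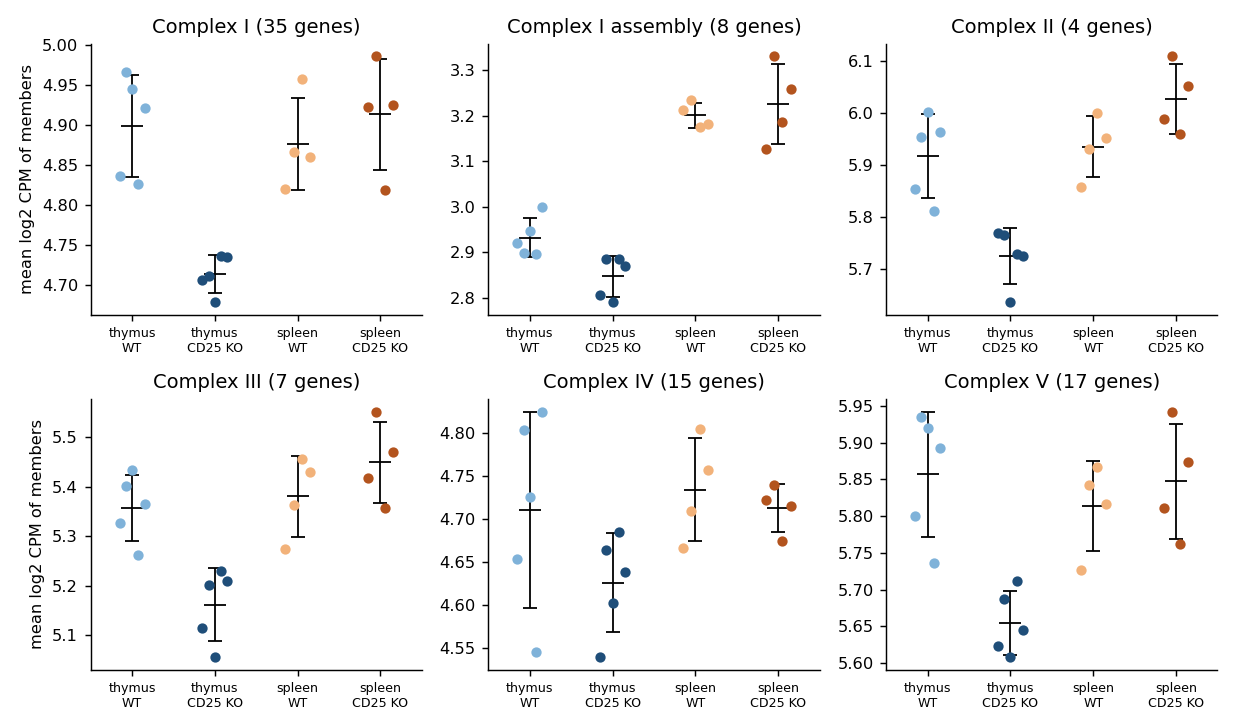
Score of each complex (mean log2 of TMM-scaled CPM of its members tested in both tissues) in each of the 18 samples, with the mean and SD in black (axes do not start at 0). Thymic CD25 KO points lie below all thymic WT points except for complex IV, whose score includes Cox6b2, Cox7a1 and Cox8b at low counts. The splenic groups overlap in all 6 panels.

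Other measurements and settings are given beside these values. Leaving out single thymic mice gave 0 to 5 called members: 0 without WT mouse 2, 3 or 5, 1 without KO mouse 1 or 3 and 3 without KO mouse 5. Calls over all tested genes moved as well. They numbered 508 lower in the main fit and 183, 248 and 220 without WT mouse 2, 3 or 5. Without KO mouse 1, 3 or 5 they numbered 214, 220 and 472. With the GC trend removed 7 members were called lower, 3 of them the same, and Atp5a1, Atp5b and Cox6a1 were not among them, while DESeq2 called 15, all 6 included. Over all tested genes these settings called 384 and 1246 lower. Cell cycle markers summed to 845 to 1729 CPM in thymic WT and 335 to 1487 in KO, with all 15 below 0 in log2 fold change and 0 called. The KO mice with high Il2ra, 2 and 4, also had the high cell cycle sums (1487 and 1243 CPM). Their complex I scores were 4.71 and 4.74, beside 4.71, 4.68 and 4.74 in KO mice 1, 3 and 5. Without KO mice 2 and 4, 6 members were called lower, 4 of them the same, beside 1232 lower over all tested genes. Marker lists of other cells had 0 genes called in thymus, and most of their log2 fold changes were below 0. Erythroid markers summed to 13.8 to 35.0 CPM in WT and 8.45 to 44.5 in KO (median log2 fold change -0.82, 4 of 5 below 0), and myeloid markers to 10.8 to 30.5 and 7.79 to 21.6 (-0.50, 4 of 4). Immature thymocyte markers summed to 45.4 to 198 CPM in WT and 57.4 to 121 in KO (-0.26, 5 of 6), and B cell markers to 12.5 to 15.9 and 11.1 to 17.7 (-0.08, 2 of 3). Of 7 Treg identity genes 4 were called lower, Il2ra among them, with a list median of -0.44 and sums of 3365 to 4268 CPM in WT and 3006 to 3621 in KO. The part of these lists in the member values was not tested.

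In spleen, deletion of CD25 was followed by little change in respiratory chain mRNA. Of 87 tested members, Cox6b2 alone passed, at lower counts in KO, which is 1.15% of members against 9.45% of all tested genes in either direction. This testis-type isoform had 26, 29, 21 and 25 counts in WT and 13, 10, 16 and 13 in KO. All KO counts were lower (log2 fold change -1.08, SE 0.26, adjusted p = 0.00901), but leaving out 1 mouse ended the call for all but KO mouse 3, and DESeq2 did not make it. The log2 fold change was above 0 for 63 of 87 members, against 48.8% of all tested genes, and for 5 members every KO sample lay above every WT sample, against 11.2% of all.

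The splenic medians were 0.05 for complex I, 0.03 for assembly factors, 0.09 for complex II, 0.04 for complex III, 0.06 for complex IV and 0.04 for complex V, and the scores of the groups overlapped for each. For complex I they were 4.82, 4.87, 4.96 and 4.86 in WT and 4.92, 4.99, 4.82 and 4.93 in KO. The highest values were those of Ndufs5 (0.27, adjusted p = 0.106) and Ndufa1 (0.21) in complex I, Ndufaf8 (0.23) and Ndufaf4 (0.05) among assembly factors, Sdhd (0.19) and Sdhb (0.13) in complex II, Uqcr10 (0.21) and Uqcrb (0.20) in complex III, Cox8a (0.27, adjusted p = 0.0107) and Ndufa4 (0.16) in complex IV, and Atp5g3 (0.24, adjusted p = 0.0331) and Atp5s (0.21) in complex V. The lowest were those of Ndufs7 (-0.15) and Ndufb2 (-0.13), Ndufaf6 (-0.08) and Ndufaf7 (-0.07), Sdhc (0.02) and Sdha (0.04), Uqcrh (-0.02) and Uqcrfs1 (0.01), Cox6b2 and Cox7a1 (-0.24), and Atp5g2 (-0.15) and Atp5g1 (-0.15). Cell cycle markers were higher in splenic KO, with sums of 539 to 655 CPM against 380 to 419 in WT and 10 of 15 called, and their part in these values was not tested. In TPM the splenic member median was 0.07, with 14 of 87 members below 0, against 45.5% of all tested genes. The summed TPM of complex II did not overlap, at 262 to 277 in WT and 279 to 306 in KO. Those of the other complexes and the assembly factors overlapped.

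In spleen the shares of the 3 c-ring genes in their summed level did not overlap between genotypes. Atp5g1, Atp5g2 and Atp5g3 encode the same mature subunit with different import sequences, and a share within a sample does not depend on library scaling. In spleen, Atp5g3 made up 57.6, 57.2, 59.6 and 56.2% of the summed c-ring TPM in WT and 61.4, 64.2, 63.9 and 66.2% in KO. Atp5g2 made up 32.0% ± 1.65 (SD, n = 4) in WT and 27.3% ± 1.82 (n = 4) in KO, and Atp5g1 10.3% ± 0.305 (n = 4) and 8.78% ± 0.179 (n = 4). Each splenic difference had p = 0.0286 in a two-sided exact permutation test over samples, the smallest that 4 against 4 can give, and an adjusted p of 0.0429 over the 6 tests in both tissues, which is above the 0.01 used for genes.

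In thymus the Atp5g1 share was 8.33, 8.30, 7.85, 9.05 and 7.95% in WT and 7.92, 6.71, 6.54, 7.08 and 6.23% in KO. The ranges overlapped by 1 KO sample (exact permutation p = 0.0159, adjusted p = 0.0429). Atp5g2 (21.5% in WT, 22.5% in KO, exact permutation p = 0.286) and Atp5g3 (70.2% and 70.6%, exact permutation p = 0.825) had larger p-values. The shares rest on gene counts divided by the length of all exons, and near-identical copies of these short genes could share reads.

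**Figure D5:**
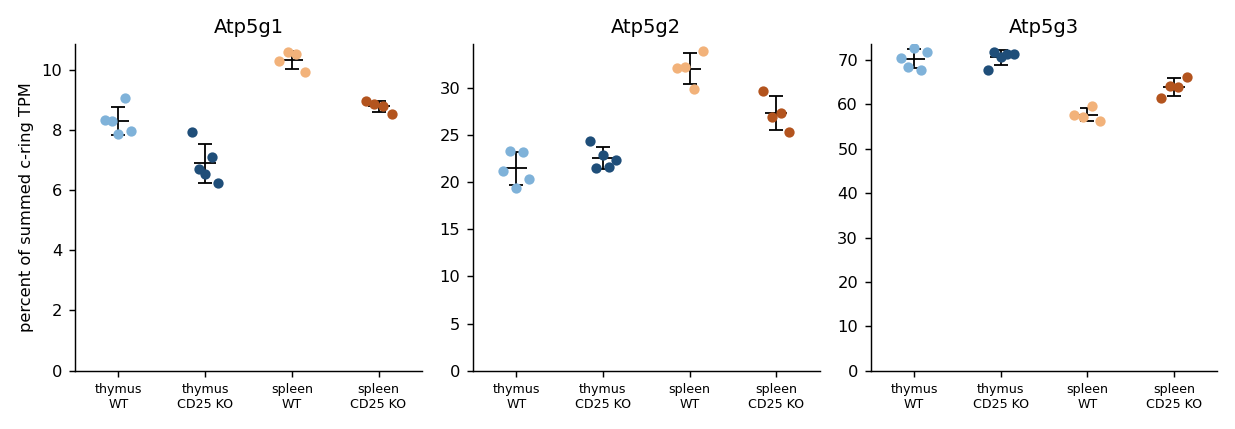
Share of each c-ring gene in the summed TPM of Atp5g1, Atp5g2 and Atp5g3 (percent, axes from 0) in each sample of the 4 groups, with the mean and SD in black. In spleen the CD25 KO samples lie at 61.4 to 66.2% for Atp5g3, above the WT samples at 56.2 to 59.6%.

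The CD25 KO effect itself differed between tissues for some members. In a model of all 18 samples, 88 members were tested for the effect in spleen minus the effect in thymus. At an adjusted p under 0.01 the difference was above 0 for 9 (10.2% of members, against 4.50% of all tested genes). It was below 0 for 1, Cox6b2 (1.14%, against 2.49%). Called or not, the difference was above 0 for 77 of 88 members, against 49.4% of all tested genes. The 9 were Ndufa1, Ndufa13 and Ndufb9 of complex I, Sdhd of complex II, Uqcr10 of complex III, Cox6a1, Cox6b1 and Cox8a of complex IV and Atp5a1 of complex V. The medians were 0.21 for complex I, 0.10 for assembly factors, 0.28 for complex II, 0.26 for complex III, 0.26 for complex IV and 0.25 for complex V, and -0.0065 over all tested genes.

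Uqcr10 was at 26.1, 27.3, 31.6, 26.04 and 28.8 CPM in thymic WT and 18.2, 22.2, 19.5, 25.7 and 23.6 in thymic KO. In spleen it was at 26.3, 28.1, 29.4 and 27.5 CPM in WT and 32.2, 36.4, 28.3 and 32.1 in KO. It was thus low in thymic KO without overlap, and in spleen the groups overlapped by 1 KO sample (difference 0.57 on the log2 scale, SE 0.13, adjusted p = 0.0062). Ndufa1 was at 17.8, 21.2, 18.6, 18.3 and 20.3 CPM in thymic WT and 13.5, 16.2, 14.9, 15.6 and 16.4 in thymic KO.

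In spleen Ndufa1 was at 18.9, 18.8, 19.4 and 19.02 CPM in WT and 20.7, 24.4, 20.02 and 23.1 in KO. Its groups did not overlap in either tissue, in opposite directions (difference 0.54, SE 0.11, adjusted p = 0.00242), and that difference was called in each of the 27 settings tried. Cox6a1 showed the same arrangement: splenic values were 50.3, 52.5, 52.8 and 53.4 CPM in WT and 56.4, 61.8, 55.8 and 57.7 in KO, above all WT (difference 0.47, SE 0.08, adjusted p = 0.000948). By edgeR's test within spleen neither gene was called (adjusted p = 0.0688 for Ndufa1 and 0.0656 for Cox6a1). Within thymus Ndufa1 was not called either (adjusted p = 0.0184). Cox8a differed by 0.48 (adjusted p = 0.00926), Sdhd by 0.42 (0.00895), Atp5a1 by 0.38 (0.0097), Ndufb9 by 0.36 (0.00959), Cox6b1 by 0.35 (0.0091) and Ndufa13 by 0.31 (0.00885). Cox6b2 differed by -1.40 (adjusted p = 0.00461). With 1 mouse left out 2 to 14 members were called in all, and 16 without thymic KO mice 2 and 4. Upper-quartile scaling left 3 and removal of the GC trend 5, of which 2 were among the 10. Over all tested genes these settings called 616 and 674 differences above 0, against 840 in the main fit.

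Comparing the WT groups, splenic and thymic Tregs had respiratory chain genes at like overall levels, with single genes apart. Of 88 members tested, 10 were higher in spleen (11.4% of members, against 21.0% of all tested genes) and 9 lower (10.2%, against 19.5%). The median was -0.0022 for complex I, 0.03 for complex II, -0.0057 for complex III, -0.02 for complex IV and 0.03 for complex V, and 0.24 for assembly factors.

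Ndufaf8 was at 6.00, 5.56, 6.42, 5.12 and 7.38 CPM in thymic and 9.61, 8.20, 9.12 and 9.65 in splenic WT samples, without overlap (log2 difference 0.58, SE 0.11, adjusted p = 0.000139). Ndufaf3 (0.50, adjusted p = 3.82e-05) was also higher in spleen, and Ndufaf4 (-0.0049) gave the lowest value of the assembly factors. Complex V changed its c-ring genes in both directions, Atp5g2 by 0.35 (adjusted p = 0.000403) and Atp5g3 by -0.52 (5.97e-05). Atp5g3 was at 98.5, 103, 116, 89.0 and 112 CPM in thymic and 67.6, 72.2, 77.0 and 72.9 in splenic WT samples.

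In complex I, Ndufb2 (-0.50, adjusted p = 5.25e-06) and Ndufab1 (-0.45, 0.00029) were lower in spleen and Ndufa13 (0.33, 2.68e-05) higher, while Ndufa11b, a processed pseudogene in the annotation, gave 0.84 (0.127). Uqcr11 (0.35, adjusted p = 0.000271) was higher, while Uqcrb (0.08), Uqcrc2 (-0.14) and Uqcrfs1 (-0.13) did not pass. In complex II the values were 0.13 for Sdha, 0.10 for Sdhc, -0.13 for Sdhd and -0.03 for Sdhb, and none passed. In complex IV, Cox6b1 (0.24, adjusted p = 0.00212) was higher, Cox7a1 (0.50, 0.0242) and Cox6b2 (-0.41, 0.108) did not pass, and Cox6a2 was lower, with 1 to 21 counts in thymic and 0 to 4 in splenic WT. Atp5h (0.25, adjusted p = 0.000785) was higher and Atp5j (-0.29, 0.0014) lower.

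Genes that work with the chain were counted for context. Cycs and Cyc1, cytochromes c and c1, gave -0.25 (adjusted p = 0.0214) and -0.23 (0.0128) in thymus and 0.08 and -0.07 in spleen. Of 13 tricarboxylic acid cycle genes 12 were below 0 in thymus, with a median of -0.19 and 1 called, Suclg2 (-0.38, adjusted p = 0.00408), a subunit of succinyl-CoA ligase. In spleen 7 of 13 were below 0 and 0 were called. Idh3a (0.54, adjusted p = 0.00556) and Fh1 (0.35, 0.00675), isocitrate dehydrogenase and fumarase, were called in the difference of the CD25 KO effect, spleen minus thymus.

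Of 13 mitochondrially encoded subunits 8 were tested, all above 0 in both tissues, with medians of 0.27 in thymus and 0.23 in spleen. Their difference from the nuclear genes was not tested. The summed CPM of the 13 overlapped between genotypes. Sums were 7189 to 7955 in thymic WT and 7722 to 10569 in thymic KO, and 7482 to 8775 in splenic WT and 6560 to 11729 in splenic KO. In spleen 0 were called. mt-Nd3 was the 1 called in thymus, where it was listed at 0 in all 5 WT samples and had 21 to 84 counts in KO. Of assembly factors outside the symbol rule 41 of 44 were tested, and Sdhaf3 (0.61, adjusted p = 0.0054) was higher in thymic KO and Acad9 (-0.34, 0.0032) lower in splenic KO. Of 13 coenzyme Q synthesis genes, Pdss1 was higher in thymic KO (0.63, adjusted p = 0.00536) and 0 were called in spleen. Of 19 tested regulators of mitochondrial biogenesis, Pprc1, a coactivator related to PGC-1, was lower in both tissues (-0.55, adjusted p = 0.0027, and -0.41, 0.000112), Mterf2 higher in thymic KO (0.62, 0.00534), Gabpb1 higher (0.21, 0.00953) and Twnk, the mitochondrial helicase, lower (-0.37, 0.00295) in splenic KO. Nrf1 gave 0.03 in thymus and 0.06 in spleen, neither called.

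The members called for the CD25 KO effect lie on GRCm38 as follows. Of those called in thymus, Atp5g1 (ENSMUSG00000006057.15) spans 96068852 to 96075670 of chromosome 11, Atp5b (ENSMUSG00000025393.12) 128083273 to 128090391 of chromosome 10, Atp5a1 (ENSMUSG00000025428.15) 77773729 to 77782869 of chromosome 18, Ndufab1 (ENSMUSG00000030869.11) 122085403 to 122101886 of chromosome 7, Cox6a1 (ENSMUSG00000041697.8) 115345642 to 115348981 of chromosome 5 and Cox7b (ENSMUSG00000031231.4) 106015700 to 106022450 of chromosome X. Of the others called in spleen or in the difference, Cox6b2 (ENSMUSG00000051811.14) spans 4751792 to 4753094 of chromosome 7, Ndufa1 (ENSMUSG00000016427.7) 37187588 to 37191163 of chromosome X, Ndufa13 (ENSMUSG00000036199.9) 69894180 to 69902558 of chromosome 8, Ndufb9 (ENSMUSG00000022354.3) 58933756 to 58939488 of chromosome 15, Sdhd (ENSMUSG00000000171.5) 50596357 to 50603812 of chromosome 9, Uqcr10 (ENSMUSG00000059534.8) 4701973 to 4704342 of chromosome 11, Cox6b1 (ENSMUSG00000036751.7) 30616861 to 30626151 of chromosome 7 and Cox8a (ENSMUSG00000035885.4) 7215153 to 7217616 of chromosome 19. Exons of 32 of the 97 members overlap those of another gene, 29 on the opposite strand and 5 on the same strand. Among members called for the CD25 KO effect, Ndufab1 overlaps Gm44986, Ndufa13 Tssk6 and Atp5a1 Haus1, all on the opposite strand. Among members called only between the WT groups, Ndufaf3 overlaps Impdh2, Ndufs1 Eef1b2 and Ino80dos, and Cox6a2 Itgad. Of the same members, Atp5j overlaps Gabpa and Ndufb2 Braf and Gm16272, again all on the opposite strand. The strand setting of the counting is not given in the sources used here, so reads of these pairs could not be separated. Ndufb9 overlaps Gm49356 on the same strand, where strand does not separate reads. Ndufb2 and Atp5g2, called only between the WT groups, overlap Gm42420 and Mir688 in the same way. The values of these members carry that uncertainty. Ndufab1-ps, a processed copy left out by the rule, had 0 to 8 counts.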

How the data were processed

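Tregs were sorted, and total RNA was depleted of ribosomal RNA for the libraries. Per the labels and methods, the authors mapped reads to GRCm38 with STAR 2.5.0b and deposited raw counts per gene made with featureCounts 1.5.0 on GENCODE M13; the counts are not normalized, and the strand and multi-mapping settings are not given in the sources used here. Reads that fit several copies of a gene can be lost or split in such counts. IDs were matched to symbols of GENCODE M21 (50376 of 50600), and 7 symbols with -ps were left out.

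Counts were filtered with filterByExpr, scaled by TMM and tested with the quasi-likelihood test of edgeR 4.0.16 in R 4.3.3, with Benjamini-Hochberg adjustment over all tested genes and a threshold of 0.01. Thymus (16986 genes) and spleen (17463) were fitted separately. The difference of effects and the WT comparison used all 18 samples (18686 genes). CPM are TMM-scaled, log2 CPM used a prior count of 2, and TPM were made from counts and exon lengths. Groups came from the labels, and each replicate is a mouse. A value from few counts has counting error besides.

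Named members were those called, the 2 highest and 2 lowest of each complex and tissue, the 2 highest per length, the largest WT differences, core subunits and tissue-restricted isoforms, and of other lists up to 4 called genes; not every gene of this rule is reported here. The members and lists were chosen with earlier results of these data known. Alternatives were RLE and upper-quartile scaling, DESeq2 1.42.0, other filters, another threshold, removal of GC and length trends, 1 fit of all samples, a replicate block and leaving out mice; leaving out thymic KO mice 2 and 4, total-count and TPM scaling were chosen after seeing the data.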

Additional observations from a re-analysis of the deposited data

Results flagged for a closer look

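The CD25 KO effect differed between spleen and thymus for 10 members by edgeR's test of the difference itself, in units of log2 (effect in spleen minus effect in thymus): Uqcr10 by 0.57, Ndufa1 by 0.54, Cox8a by 0.48, Cox6a1 by 0.47, Sdhd by 0.42, Atp5a1 by 0.38, Ndufb9 by 0.36, Cox6b1 by 0.35, Ndufa13 by 0.31 and Cox6b2 by -1.40. Mouse model, age, tamoxifen and the date in the column names go with tissue here and cannot be told apart from it.

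One sample stood apart from its group by Dixon's ratio among 80 groups tested: the highest thymic CD25 KO sample of Cox8a, at 51.4 CPM, beside 45.5 to 45.9 in the other 4. About 1 group in 20 is set apart in this way when samples differ only at random.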

How the results depend on the processing

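The thymic medians of all 6 groups of members were below 0 in each setting of the fit, while in spleen those of complex I assembly, III and V changed sign in 5, 1 and 2 of 17. The thymic count of 6 called members became 15 with DESeq2, 21 in 1 fit of all 18 samples, 28 at an adjusted p under 0.05 and 0 to 5 with 1 mouse left out. Lower calls over all tested genes were 508 in the main fit, 1246 with DESeq2 and 1585 in 1 fit of all samples. They were 1858 at 0.05 and 183 to 516 with 1 mouse left out. The splenic count of 1 (Cox6b2, lower) became 2 with no filter on low counts (Atp5g3 and Cox8a, both higher) or with the GC trend removed (Cox6b2 and Cox8a), 3 at 0.05 and 0 to 2 with 1 mouse left out. DESeq2, and GC and length trends removed, called Cox8a alone, higher. Over all tested genes in spleen the main fit called 1031 higher and 620 lower, and DESeq2 1315 and 831. The difference between tissues, with 10 members, gave 3 with upper-quartile scaling, 22 with DESeq2, 4 with no filter, 5 with the GC trend removed, 6 with GC and length trends removed, 16 without thymic KO mice 2 and 4, 28 at 0.05 and 2 to 14 with 1 mouse left out. Differences called above 0 over all tested genes were 840 in the main fit, 616 with upper-quartile scaling and 1368 with DESeq2. They were 1537 without thymic KO mice 2 and 4. The WT comparison, with 19, gave 29 at 0.05 and 14 to 21 with 1 mouse left out. Medians that moved beyond the WT SD were those of complex I assembly in thymus (-0.11 with GC and length trends removed, -0.0936 with the replicate block and GC) and in spleen (-0.0044 with upper-quartile scaling, -0.0065 with GC and -0.0072 with GC and length trends removed, -0.0063 to 0.0812 with 1 mouse left out), complex II in thymus (-0.11 with GC, -0.088 with GC and length, -0.10 with the replicate block and GC) and complex V between WT groups (-0.0721 to 0.0606 with 1 mouse left out). The cause of these shifts was not tested. The replicate block gave 0 called members in thymus, and 1 with GC removed as well. Over all tested genes it called 158 lower, and 168 with GC removed as well. The shared replicate numbers did not pair the samples (correlations of deviations 0.144, 0.0341, -0.0675, -0.238 and -0.048, 1 of 5 KO samples closest to its own number). Each called member kept its direction in each setting of the fit; 209 of the 402 repeats of these members stayed past the threshold. Counting error limits Cox6b2, at 10 to 44 counts.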
